A study of Mus musculus with 3 samples.

Results

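Interferon-stimulated genes were followed in macrophages of the mouse sciatic nerve before and after nerve crush. The list named 44 genes, and 43 of them had a row in the count tables; no row carried the name Mx2. Members were the genes that reached 5 CPM (UMIs of a gene per 1000000 UMIs of the library) in at least 1 library, which left 41 of 44 listed genes, among 8893 genes of the tables that met the same minimum. Cxcl9 and Ifi44 stayed just under the minimum, with 1.81, 0 and 3.98 CPM for Cxcl9 and 1.21, 1.63 and 3.08 CPM for Ifi44 in the steady state, day 1 and day 5 libraries. Values are given in that order throughout. The member nearest above it was Cmpk2, which reached 9.04 CPM in the day 1 library and stayed under 5 CPM in the other libraries.

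The cells came from C57BL/6 mice. 1 single-cell library was made from uninjured nerve (steady state), 1 from nerve taken 1 day after crush and 1 from nerve taken 5 days after crush, an injury that severs the axons but leaves the nerve sheath in place. The libraries were made with 10x Genomics droplet chemistry version 1, which tags each captured RNA molecule with a unique molecular identifier (UMI). The sources used here do not state the age or sex of the mice, how many animals went into a library or how the cells were sorted. As each time point had 1 library and no replicate, every difference is one between libraries, and no test could be made. All intervals are exact 95% intervals and cover counting error only. A difference of 2-fold or more is a measure of size and not a call of significance.

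Interferons are secreted alarm signals of antiviral defence. Type I interferons bind the receptor pair Ifnar1 and Ifnar2, whose kinases Jak1 and Tyk2 activate Stat2 and related factors. These join Irf9 on interferon-stimulated response elements (ISRE) in the promoters of target genes, while interferon gamma acts mainly through gamma-activated sites (GAS). The targets include sensors of foreign nucleic acids, proteins that block viral replication, the ubiquitin-like modifier Isg15 and GTPases that attack the vacuoles of pathogens, and macrophages of most tissues hold a low level of many of them at rest.

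The libraries held 728, 2793 and 2059 cells in steady state, day 1 and day 5 after removal of 3, 3 and 0 barcodes, with 1656510, 7963091 and 5524496 UMIs and medians of 2238.5, 2555 and 2473 UMIs per cell. The libraries shared 2 to 11 cell barcodes per pair. A count of 0 allows up to 1.81, 0.377 and 0.543 CPM (3 UMIs) in the same order. The 6 macrophage markers, such as C1qa, Adgre1 and Apoe, summed to 64484, 16511 and 69838 CPM, and 8 monocyte markers such as Ly6c2 and Plac8 to 1019, 3048 and 1381 CPM. The 9 markers of epineurial macrophages, such as Cd209f, Fcna and Lyve1, summed to 12681, 307 and 2255 CPM. Markers of lymphocytes were low but not absent: B cell markers had 80, 76 and 150 UMIs (48.3, 9.54 and 27.2 CPM), NK cell markers 2, 44 and 61, and T cell markers 5, 3 and 28. Of these lists Cd8a, Cd3e, Ms4a1, Ncr1, Nkg7 and Gzma were at 0 in every library. Plasmacytoid dendritic cells are a main source of type I interferon, and their markers summed to 182, 49.9 and 95.8 CPM over 3, 4 and 3 of 6 genes, with Klk1 and Ly6d at 0 throughout. Subset markers thus differed between the libraries along with time, and their part in the differences below was not tested except where cells are split by a marker.

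The 41 genes together were most abundant 1 day after crush. Their summed levels were 2307, 3807 and 3052 CPM. Their sum was 1.65-fold higher at day 1 than in steady state (1.60 to 1.71) and 1.32-fold higher at day 5 (1.28 to 1.37). Of the 41 genes, 29 had their highest level at day 1, 7 at day 5 and 5 in steady state, and 26 had their lowest level in steady state. These counts take differences of any size, and the matching shares of all genes were not computed. The steady state library, with the fewest UMIs, had the widest counting error. At least 2-fold higher at day 1 than in steady state were 15 of 41 members, a share of 36.6%, against 17.2% of all genes with 5 CPM or more; at least 2-fold lower were 0 members, against 16.3% of all genes. The median log2 ratio was 0.52 over the members and 0.09 over all genes.

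At day 5, 8 of 41 members were at least 2-fold above steady state, 19.5%, against 11.8% of all genes, and 1 member, Cmpk2, was at least 2-fold below it, on 5 and 8 UMIs, against 12.0% of all genes. The median log2 ratio at day 5 was 0.29 over the members and 0.02 over all genes. The day 1 and day 5 ratios share the steady state library, so they are not independent of each other, and the ratio of day 5 over day 1 shares both injury libraries with them. From day 1 to day 5, 2 members were at least 2-fold higher (Ifit2 and Gbp3), 4.88% against 7.10% of all genes, and 5 of 41 were at least 2-fold lower, against 6.16%. The median log2 ratio of day 5 over day 1 was -0.37 over the members and -0.06 over all genes. Bst2, Slfn2 and Isg15 held the most member UMIs at day 1, with 15.8%, 12.0% and 10.9% of the sum. The members without the 3 that had the most UMIs gave a day 1 ratio of 1.61 (1.54 to 1.68).

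**Figure D1:**
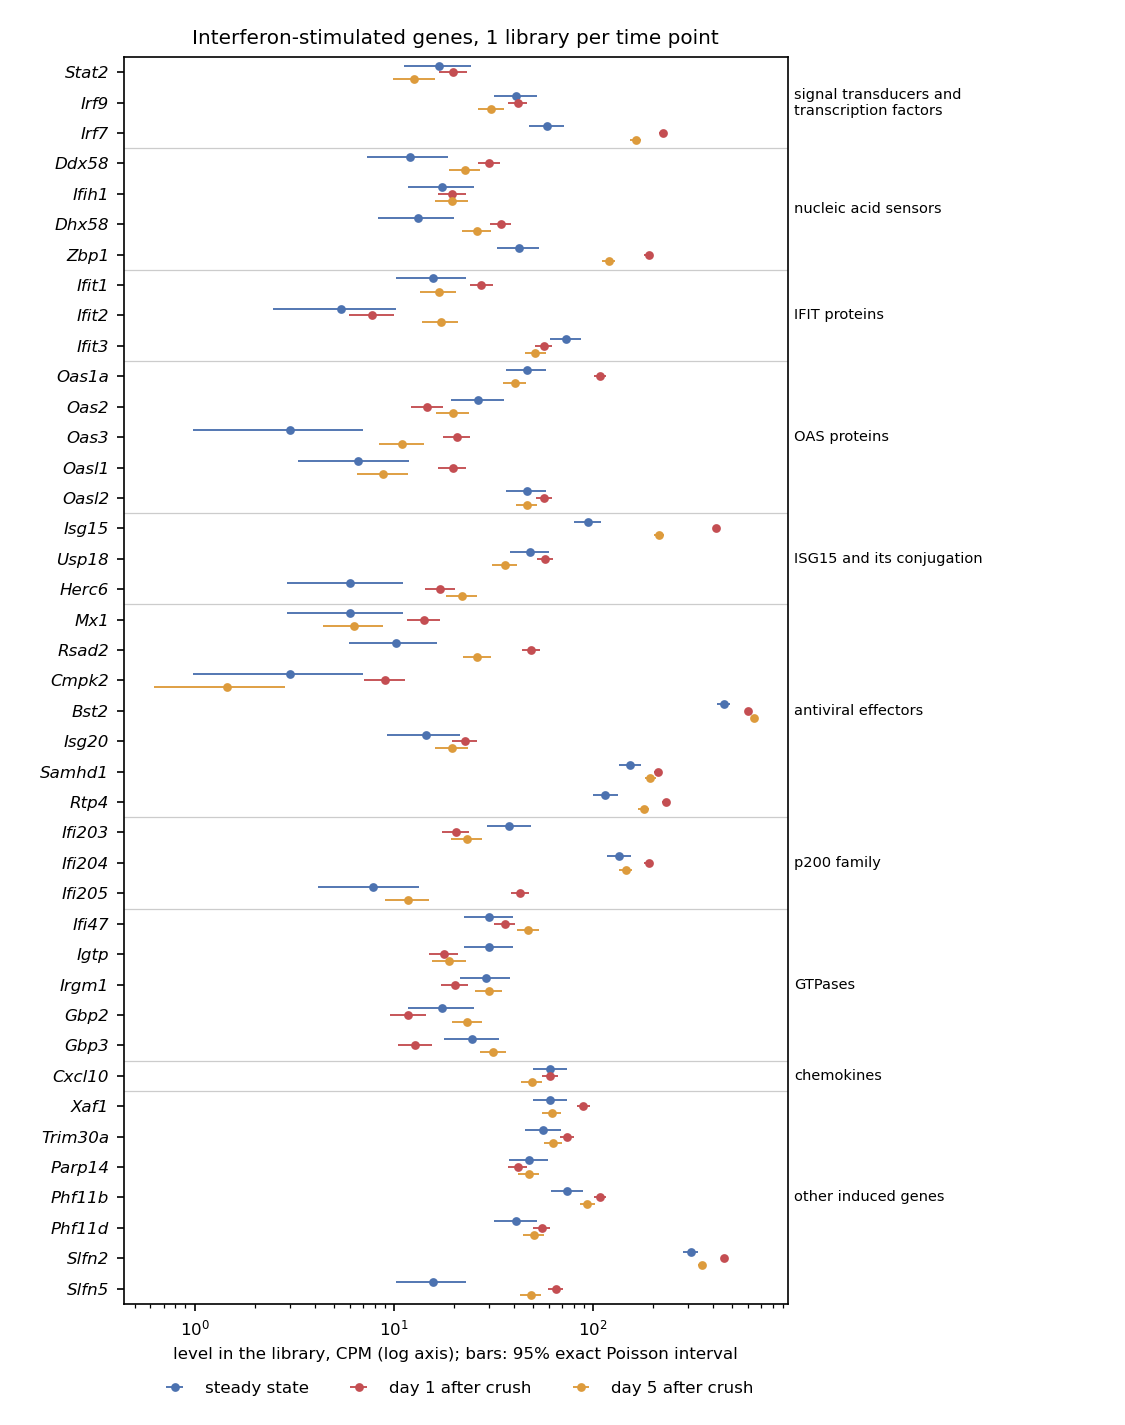
Level of each of the 41 genes in CPM (log axis) in the steady state, day 1 and day 5 libraries, grouped by role; points are 1 library each and bars are exact 95% Poisson intervals for counting error. Isg15, Irf7, Zbp1 and Slfn5 lay highest at day 1 and lowest in steady state, Ifit3 lay highest in steady state, and the GTPases lay lowest at day 1 with the exception of Ifi47.

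The promoters of the members carried the letters of the interferon response element far more often than promoters in general. RefSeq promoters on the mouse build GRCm38.p6, 250 bases before and 50 after the start of transcription, were matched by symbol for 33 of 41 members. The letters searched were GAAANNGAAA for the ISRE, on both strands, and TTCNNNGAA for the GAS, which reads the same on both strands; overlapping matches were counted separately. ISRE letters were in the promoters of 20 of 33 members, 60.6%, against 3.44% of 32851 promoters of the same length. GAS letters were in 6 of 33, 18.2%, against 8.30%, and 3 members had both. A member with several promoters counted once if any of them matched, and counted that way 3.99% of all genes had ISRE letters and 9.55% had GAS letters.

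Members with and without these letters had median ratios close to each other. The median log2 ratio of day 1 over steady state was 0.40 over the 20 members with ISRE letters and 0.55 over the 13 without. The 5 promoters printed here were chosen to show that contrast: Isg15 and Irf7 were at least 2-fold above steady state at day 1, and Ifit1, Ifit3 and Gbp3 were not, although Ifit1 passed 2-fold without its richest cell. Capitals mark the ISRE letters on either strand, so TTTCNNTTTC is the same element on the other strand. Each sequence runs 5′ to 3′ in the direction of its gene. Isg15 is at chr4:156200769-156201068 on the minus strand, Ifit1 at chr19:34640639-34640938 and Ifit3 at chr19:34583279-34583578 on the plus strand, Irf7 at chr7:141266375-141266674 on the minus strand and Gbp3 at chr3:142559794-142560093 on the plus strand.
Isg15: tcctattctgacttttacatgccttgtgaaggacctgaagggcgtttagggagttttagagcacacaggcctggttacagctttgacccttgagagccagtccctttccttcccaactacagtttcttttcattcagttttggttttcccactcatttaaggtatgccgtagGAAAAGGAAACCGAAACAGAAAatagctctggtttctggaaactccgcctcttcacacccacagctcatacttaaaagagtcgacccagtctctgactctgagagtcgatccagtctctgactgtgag
Ifit1: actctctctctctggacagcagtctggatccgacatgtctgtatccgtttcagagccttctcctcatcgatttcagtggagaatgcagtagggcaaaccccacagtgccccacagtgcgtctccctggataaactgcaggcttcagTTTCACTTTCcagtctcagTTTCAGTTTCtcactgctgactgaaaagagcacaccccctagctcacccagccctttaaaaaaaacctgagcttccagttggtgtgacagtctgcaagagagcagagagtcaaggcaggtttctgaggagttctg
Ifit3: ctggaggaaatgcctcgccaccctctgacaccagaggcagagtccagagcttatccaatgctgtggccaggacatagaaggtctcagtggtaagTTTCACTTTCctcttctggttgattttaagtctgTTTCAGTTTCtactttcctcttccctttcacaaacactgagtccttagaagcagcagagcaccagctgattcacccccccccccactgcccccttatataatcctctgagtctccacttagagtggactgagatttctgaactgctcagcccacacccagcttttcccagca
Irf7: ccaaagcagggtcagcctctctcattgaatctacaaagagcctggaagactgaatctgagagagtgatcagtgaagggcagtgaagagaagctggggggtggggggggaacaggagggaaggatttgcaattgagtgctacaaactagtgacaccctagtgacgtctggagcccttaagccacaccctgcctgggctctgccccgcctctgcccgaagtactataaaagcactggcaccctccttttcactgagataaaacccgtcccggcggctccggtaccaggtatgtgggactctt
Gbp3: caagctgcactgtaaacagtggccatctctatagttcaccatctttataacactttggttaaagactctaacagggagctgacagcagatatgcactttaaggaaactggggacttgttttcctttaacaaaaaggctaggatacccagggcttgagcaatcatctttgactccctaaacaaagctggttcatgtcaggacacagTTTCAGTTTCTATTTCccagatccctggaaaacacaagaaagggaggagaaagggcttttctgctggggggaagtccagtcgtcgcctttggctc

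The Isg15 promoter held 3 overlapping matches, the first 78 bases before the start. Ifit1 and Ifit3 held 2 matches each, Gbp3 held 2 overlapping matches, and the Irf7 promoter held none in this window. The levels of these 5 genes in steady state, day 1 and day 5 were 94.2, 416 and 215 CPM for Isg15 and 58.6, 225 and 164 CPM for Irf7. Isg15 and Irf7, with 3 matches and none, were thus both lowest in steady state and highest at day 1. Ifit1 was at 15.7, 27.5 and 16.8 CPM and Ifit3 at 73.0, 56.5 and 51.4 CPM. Gbp3 was at 24.8, 12.8 and 31.5 CPM, lowest in the library where Isg15 was highest.

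Among the genes of the signalling machinery, Irf7 stood apart from Stat2 and Irf9. Irf7, the transcription factor that amplifies type I interferon production, was 3.85-fold higher at day 1 than in steady state (3.14 to 4.77) and 2.79-fold higher at day 5 (2.26 to 3.48). Its UMIs were found in 6.73%, 26.5% and 21.1% of cells, or in 3.92%, 14.5% and 10.9% when each cell was thinned to 1000 UMIs. Stat2 and Irf9, partners in the factor that binds the ISRE, stayed near their steady state levels at day 1, with ratios of 1.17 (0.782 to 1.82) and 1.02 (0.785 to 1.35). Irf9 was at 41.1, 41.9 and 30.8 CPM and Stat2 at 16.9, 19.8 and 12.7 CPM. No cell class in these libraries was known to lack the members, so no background share from free RNA could be set beside a share of cells.

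The nucleic acid sensors summed to 85.1, 274 and 188 CPM. Of these, 3 of 4 were at least 2-fold higher at day 1 than in steady state, against 17.2% of all genes. Zbp1, a sensor of left-handed nucleic acid that can start cell death, was at 42.3, 190 and 120 CPM. Its ratio to steady state was 4.51 at day 1 (3.54 to 5.81) and 2.84 at day 5 (2.21 to 3.68). Ddx58, which encodes the RNA sensor RIG-I, was 2.49-fold higher at day 1 (1.57 to 4.14), and its relative Dhx58 2.59-fold (1.68 to 4.2). Ifih1, the sensor of long double-stranded RNA, was at 17.5, 19.6 and 19.5 CPM, with intervals that span no difference in each comparison.

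The IFIT proteins bind foreign RNA ends, and several OAS proteins activate the RNA-cutting enzyme RNase L when they meet double-stranded RNA. Both groups included members that were higher and members that were lower at day 1. The 3 IFIT genes summed to 94.2, 91.8 and 85.4 CPM. Ifit1 was 1.75-fold higher at day 1 than in steady state (1.16 to 2.74), Ifit2 3.17-fold higher at day 5 (1.60 to 7.13), and Ifit3 was 1.29-fold lower at day 1 (1.05 to 1.58). These levels leaned on few cells: 1 cell held 29.5% of the Ifit2 UMIs at day 5, and 1 cell held 21.5% of the Ifit3 UMIs in steady state. For Ifit1, 1 cell held 23.1% of the steady state UMIs. Without the cell richest in each gene, Ifit1 was 2.18-fold higher at day 1 (1.38 to 3.64) and Ifit3 at 0.954 of its steady state level (0.763 to 1.2). Ifit3 also shares near-identical sequence with Ifit3b, so its counts are uncertain.

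Of the 5 OAS genes, Oas1a, Oas3 and Oasl1 were at least 2-fold higher at day 1 than in steady state, against 17.2% of all genes. Oas1a was at 46.5, 109 and 40.5 CPM, 2.33-fold above steady state at day 1 (1.85 to 2.99) and 2.68-fold lower at day 5 than at day 1 (2.31 to 3.11). Oas3 was 6.86-fold higher at day 1, on 5 steady state UMIs, with an interval from 2.88 to 21.4. Oas2 was 1.81-fold lower at day 1 (1.25 to 2.58), and Oasl2 was at 46.5, 56.8 and 46.3 CPM. The high value of Oas1a was thus confined to the day 1 library. Oas1a has close copies such as Oas1g, so reads may have been split between them.

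Isg15, which is joined to other proteins much as ubiquitin is, was among the members with the most UMIs in each library. It was 4.42-fold higher at day 1 than in steady state (3.76 to 5.22) and 2.29-fold higher at day 5 (1.93 to 2.72). Cells with an Isg15 UMI made up 8.10%, 32.2% and 22% of cells, or 4.70%, 20.2% and 13% after thinning. Usp18, the protease that removes Isg15 and dampens receptor signalling, was at 48.3, 57.6 and 36.0 CPM, so it did not follow Isg15. Herc6, the mouse ligase for Isg15, was 2.83-fold higher at day 1 (1.49 to 6.03) and 3.63-fold at day 5 (1.91 to 7.76), and 1 cell held 26.4% of its day 5 UMIs.

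Of the 7 antiviral effectors, 4 were at least 2-fold higher at day 1 than in steady state, against 17.2% of all genes. Bst2, which tethers budding virus to the cell, was at 453, 601 and 646 CPM and in 39.1%, 59.0% and 58.4% of cells, or 25.1%, 37.4% and 39.7% after thinning. Samhd1, which depletes the nucleotides that viruses need, was at 153, 212 and 194 CPM. Both were lowest in steady state, with day 1 ratios of 1.33 (1.23 to 1.43) and 1.38 (1.21 to 1.58). Rtp4, which restrains viral replication, was at 115, 232 and 179 CPM, a day 1 ratio of 2.01 (1.73 to 2.35).

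Several of the genes given in full here and above are under 50 CPM and were chosen after their values were seen. Rsad2, which makes a chain-terminating nucleotide, was at 10.3, 48.9 and 26.2 CPM, 4.76-fold higher at day 1 (2.93 to 8.26). Cmpk2, its neighbour in the genome, was at 3.02, 9.04 and 1.45 CPM, 6.24-fold lower at day 5 than at day 1 (3.01 to 15). Mx1 was at 6.04, 14.2 and 6.34 CPM; C57BL/6 mice carry a non-functional allele of this antiviral GTPase. Isg20, an exonuclease, was at 14.5, 22.7 and 19.5 CPM, and 1 steady state cell held 37.5% of its UMIs there. Of these scarce members, Rsad2, Cmpk2, Mx1 and Isg20 all had their highest level at day 1.

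The p200 proteins, which bind DNA, and the interferon-inducible GTPases did not follow one order. Ifi204 was at 135, 190 and 146 CPM and Ifi205 was 5.49-fold higher at day 1 than in steady state (3.17 to 10.4). Ifi203 was 1.86-fold lower at day 1 (1.37 to 2.50). These 3 genes lie among near-identical copies on chromosome 1, so their counts are uncertain. The 5 GTPases, best known as targets of interferon gamma, summed to 132, 98.7 and 151 CPM.

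None of the 5 GTPases was at least 2-fold above steady state at day 1, against 17.2% of all genes. With 5 genes, that count cannot be told apart from the share of all genes. Igtp, Irgm1 and Gbp3 were 1.69-fold (1.2 to 2.35), 1.43-fold (1.02 to 1.99) and 1.93-fold (1.31 to 2.80) lower at day 1. At day 5 the sum was 1.53-fold above day 1 (1.39 to 1.69), and the intervals of 4 of 5 genes lay above 1. Gbp3 was 2.46-fold higher at day 5 than at day 1 (1.91 to 3.17) and Gbp2 1.98-fold (1.50 to 2.61). Of the other 2 genes at day 1, Gbp2 had a ratio of 0.674 to steady state (0.441 to 1.06) and Ifi47 one of 1.19 (0.882 to 1.65), so the intervals of 3 of 5 lay below 1. Matching shares of all genes for these counts of intervals were not computed. That the groups of genes differ in order was not tested.

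Cxcl10, the chemokine that draws T cells, was at 61.0 CPM in both steady state and day 1 and at 49.2 CPM at day 5. Among the other induced genes, Slfn5 was at 15.7, 65.1 and 48.7 CPM, 4.14-fold higher at day 1 (2.80 to 6.41) and 3.10-fold at day 5 (2.07 to 4.84). Its relative Slfn2, which keeps immune cells quiescent, was at 308, 456 and 353 CPM. Slfn5 thus had the larger ratio of this pair. Xaf1, a promoter of cell death, was at 61.0, 89.3 and 62.1 CPM, and Trim30a, a brake on inflammasome and Toll-like receptor signalling, at 56.1, 74.1 and 63.0 CPM. Phf11b was at 74.3, 109 and 93.4 CPM, Phf11d at 41.1, 55.1 and 50.3 CPM and Parp14, an ADP-ribosyltransferase, at 47.7, 41.8 and 47.4 CPM. All of these except Parp14 were highest at day 1, and single cells held 24.8% of the Xaf1 UMIs and 25.8% of the Trim30a UMIs in steady state.

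Genes around the members in the pathway gave a mixed picture. All 10 interferon genes searched had 0 UMIs in each library. Of the 6 receptor genes 5 reached 5 CPM, and none differed 2-fold in a comparison; Ifnar1 was at 36.2, 67.6 and 62.1 CPM. Among the genes of signalling from the receptors, levels differed in both directions. The transcription factor Irf1 was at 186, 14.9 and 47.1 CPM and Socs3, an inhibitor of cytokine signalling, at 909, 151 and 202 CPM. Usp25, a deubiquitinase, was at 15.7, 31.8 and 33.7 CPM. Irf1 and Socs3 were thus highest in steady state and Usp25 lowest there. Of 10 upstream sensors and adaptors that reached 5 CPM, 1 was at least 2-fold higher and 1 lower at day 1, smaller shares than the 17.2% and 16.3% of all genes. The kinase gene Ikbke was at 4.23, 33.7 and 16.1 CPM and the RNA receptor gene Tlr7 at 21.1, 6.03 and 11.4 CPM; both, like Usp25, were named after their values were seen.

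A list of 55 further interferon-induced genes included 42 at 5 CPM or more. At day 1, 11 of 42 were at least 2-fold above steady state, against 17.2% of all genes, and 4 below, against 16.3%, with a median log2 ratio of 0.65. At day 5, 9 were above, against 11.8%, and 0 below, against 12.0%, with a median of 0.36. Ms4a4c, a membrane protein of monocytes, was at 33.2, 355 and 185 CPM, Slfn1 at 2.41, 72.7 and 22.8 CPM, and Trim25, a ligase that activates RIG-I, at 16.3, 90.7 and 63.4 CPM. Slfn4, with 0 UMIs in steady state, reached 29.6 and 6.34 CPM after crush and was named after its values were seen. Among 13 genes of class I antigen presentation 1 was at least 2-fold above steady state at day 1, a smaller share than the 17.2% of all genes: the proteasome activator subunit Psme2, at 167, 454 and 370 CPM.

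Cell by cell, the summed UMIs of the 41 genes showed both a broad shift and a tail of strongly positive cells. To compare cells of different depth, each was thinned to 1000 UMIs, which used 638, 2496 and 1777 cells and left out 90, 297 and 282 shallower ones. The mean number of member UMIs per 1000 was 2.21, 3.84 and 2.97 in steady state, day 1 and day 5, and the median was 1, 2 and 2. Cells with none made up 28.7% (25.2 to 32.4), 15.8% (14.4 to 17.3) and 18.1% (16.4 to 20). More cells of the injury libraries than of the steady state library therefore had at least 1 member UMI, by more than counting error.

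The tail was longest at day 1. High cells, defined as those with at least 10 member UMIs per 1000, were 20, 202 and 72 cells, or 3.13% (1.93 to 4.80), 8.09% (7.05 to 9.23) and 4.05% (3.18 to 5.08). The shares of steady state and day 5 were not distinguishable at this depth. High cells held 22.8%, 35.5% and 20.9% of all member UMIs. The maximum was 24, 108 and 49 UMIs, and the 99th percentile 19, 24 and 18. The class is a range and not a cell type: 18, 170 and 85 cells held 8 to 11 member UMIs, near the boundary.

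**Figure D2:**
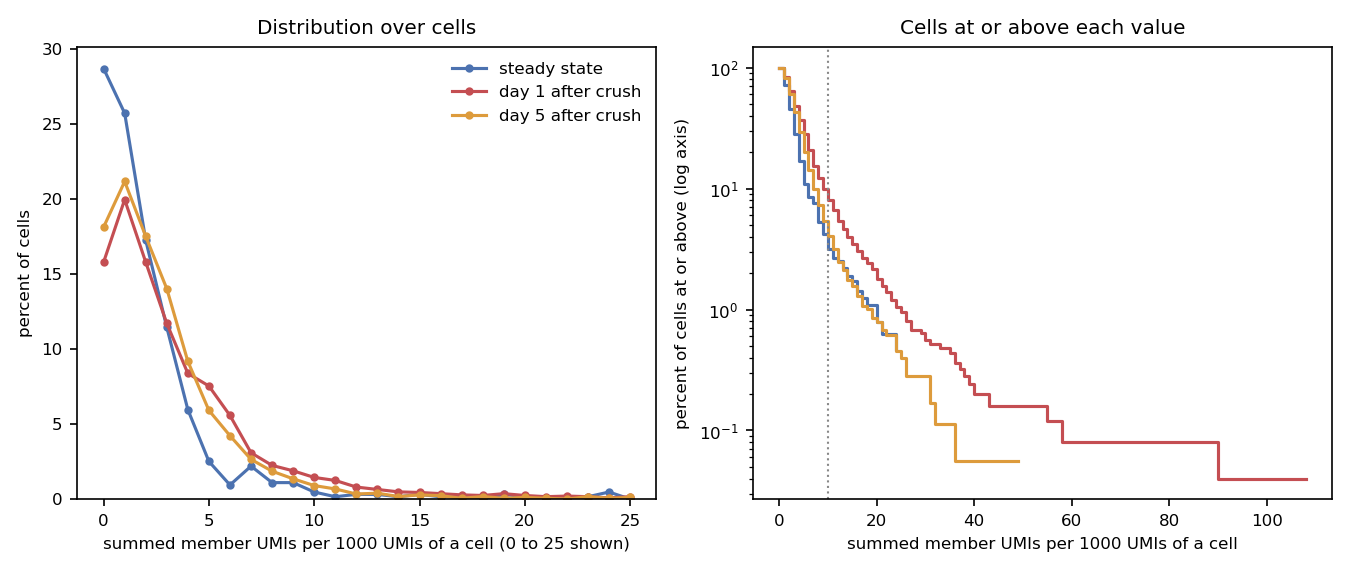
Left, percent of cells by summed UMIs of the 41 genes per 1000 UMIs of a cell, 0 to 25 shown; right, percent of cells at or above each value (log axis), with the boundary of 10 dotted, for the 3 libraries. The steady state curve starts highest at 0 (28.7% of cells), and on the right the day 1 curve lies above the others at 10 UMIs, with 8.09% of cells, and reaches 108.

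Split by rank, most of the difference from steady state lay in the lower 90% of cells. This split differs from the boundary of 10 UMIs. Cells under that boundary had means of 1.76, 2.69 and 2.45 member UMIs. The split by rank therefore does not give the part that high cells had in the difference, which was not computed. High cells held 35.5% of member UMIs at day 1, a larger share than the 22.8% in steady state and the 20.9% at day 5. The split by rank thus does not show that the day 1 difference was mainly broad. In the lower 90% of cells the mean was 1.37, 2.56 and 2.10 member UMIs, 1.87-fold higher at day 1 and 1.54-fold higher at day 5 than in steady state. In the upper 10% the mean was 9.75, 15.4 and 10.8. The lower 90% of cells accounted for 65.7% of the difference in means between day 1 and steady state and for 86.2% of that between day 5 and steady state. Between day 5 and day 1 they accounted for 47.6%, so the smaller day 5 mean came about equally from the upper 10% of cells and from the rest. Variance over mean, which is 1 for counts that scatter at random, was 4.76, 7.81 and 4.34.

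The UMIs of high cells came from several members. As a description, since the sum that defines high cells raises this number too, they had a median of 8.5, 8 and 8 members with a UMI, against 1, 2 and 2 in the other cells. In 1, 21 and 7 of them a single member gave at least 50% of the sum. The strongest day 1 cell had 108 member UMIs over 21 genes, among them 27 of Isg15 and 21 of Rsad2. Median depths of high and other cells were 2477 and 2330.5 UMIs in steady state, 2918 and 2822 at day 1, and 3000 and 2805 at day 5. No doublet caller was run; without the 2% of cells with the most UMIs, high cells were 2.89%, 7.79% and 4.21%.

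To choose cells and measure them on different genes, the members were split into list A with 20 genes and list B with 21 genes, assigned in turn down the list. Cells with at least 5 UMIs per 1000 of list A, 38, 359 and 177 cells, had 5.43-fold (4.42 to 6.64), 4.45-fold (4.18 to 4.75) and 3.61-fold (3.27 to 3.99) the level of list B found in the other cells. Cells chosen on list B, 22, 192 and 77 cells, had 3.87-fold (3.14 to 4.74), 3.52-fold (3.31 to 3.75) and 3.14-fold (2.83 to 3.48) the level of list A. Cells rich in some members were thus rich in members that had not chosen them, in each library. Some close relatives, such as Ifi203 and Ifi204, fell in different lists. The part of reads shared between such copies was not tested. Across cells, Pearson's r between the lists was 0.39, 0.63 and 0.43 over 638, 2496 and 1777 cells, a description of cells that share a library.

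The same lists served to take cells rich in members out of the comparison of libraries. Genes of list A were compared without the cells chosen on list B, and genes of list B without those chosen on list A. The cells left out were 5.96%, 14.4% and 9.96% for list A and 3.45%, 7.69% and 4.33% for list B. The injury libraries thus lost larger shares, and the part of this in the ratios below was not tested. At day 1, 14 of 41 members were then at least 2-fold above steady state, 13 of them among the 15 found with all cells, against 17.8% to 18.1% of all genes in the same cells. At least 2-fold lower were 5 members, against 16.3% to 16.6% of all genes. The median log2 ratio was 0.44, with Ifit2, which had 0 steady state UMIs left, at its lower bound. At day 5, 11 members were at least 2-fold higher, against 12.6%, including all 8 found with all cells, and 2 were lower, against 12.1% to 12.3%, with a median of 0.29. From day 1 to day 5, 3 members were at least 2-fold higher, against 7.04% to 7.48% of all genes, and 3 were lower, against 6.38% to 6.57%.

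Irf7, Zbp1 and Isg15 kept their differences without these cells. Isg15 was at 49.1 CPM in steady state and 250 CPM at day 1, 5.09-fold higher (4.02 to 6.52). Irf7 was at 42.4 and 182 CPM, 4.29-fold higher (3.34 to 5.59), and Zbp1 at 26.1 and 166 CPM, 6.36-fold higher (4.65 to 8.96). Rsad2 was at 5.87 and 18.4 CPM, 3.13-fold higher (1.60 to 6.99), against 4.76-fold over all cells, shallower ones included. Mx1 and Oasl1 were no longer at least 2-fold higher, at 1.53-fold (0.692 to 4.01) and 1.72-fold (0.818 to 4.15).

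Cxcl10 was spread differently over the cells. It had equal levels in steady state and at day 1 over all cells, but without the cells chosen on list A its levels were 59.9, 21.6 and 27.9 CPM. The day 1 ratio was then 0.36 (0.28 to 0.48) and the day 5 ratio 0.47 (0.35 to 0.62). More cells were left out at day 1 (14.4%) and day 5 (9.96%) than in steady state (5.96%), and the part of this was not tested. In thinned cells, a UMI of Cxcl10 was in 3.61%, 2.56% and 2.64% of cells, with 1.48, 3.02 and 2.15 UMIs per positive cell; unthinned, 6.18%, 4.26% and 4.37% of cells had one. As a description, since Cxcl10 is itself in the sum, high cells held 2.94%, 85.5% and 60.4% of its thinned UMIs. The level was thus the same in the steady state and day 1 libraries while the cells that held it differed.

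**Figure D3:**
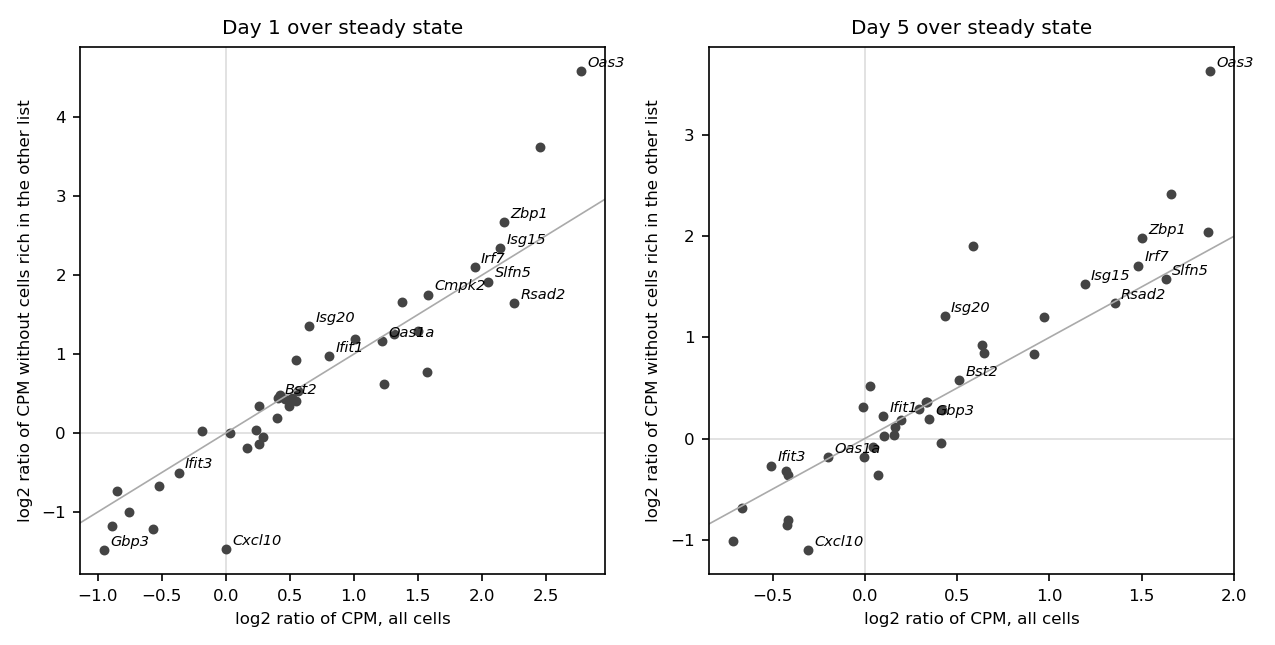
Log2 ratio of CPM of each member against steady state over all cells (x axis) and without the cells rich in the other list of members (y axis), at day 1 (left) and day 5 (right); each point is 1 gene and the line marks equal values. Isg15, Irf7 and Zbp1 lie above the line at both times, and Cxcl10 lies far below it at day 1, at -1.47 on the y axis; Oas3 rests on 1 steady state UMI on the y axis, genes with 0 UMIs in steady state are set at 3 UMIs there, and Cmpk2 is not plotted at day 5, where both libraries were at or under that floor.

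Genes outside the list showed what else the high cells carried. The further interferon-induced genes were together 3.66-fold (3.43 to 3.90), 2.15-fold (2.11 to 2.19) and 2.42-fold (2.34 to 2.49) higher in high than in other cells of steady state, day 1 and day 5. Of those with at least 100 CPM in either class, 20 of 22, 17 of 21 and 18 of 24 were at least 2-fold higher, against 19.6%, 3.75% and 8.45% of all genes outside the list. A scarce gene could meet that minimum through the high cells alone. Epsti1 was 7.63-fold (5.52 to 10.4), 2.91-fold (2.41 to 3.51) and 3.45-fold (2.76 to 4.27) higher, and Ifitm3, which blocks virus entry, 3.40-fold (3.08 to 3.73), 1.82-fold (1.76 to 1.87) and 2.13-fold (2.02 to 2.24). Class I presentation genes were 1.64-fold (1.52 to 1.77), 1.61-fold (1.57 to 1.65) and 1.53-fold (1.48 to 1.59) higher. Interferon receptor genes were at 0.651 (0.466 to 0.887), 1.17 (1.08 to 1.28) and 0.817 (0.702 to 0.945) of the level of the other cells, so the receptors did not share the ratios of the induced genes.

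The following genes were chosen for their ratio, and those leading at day 1 reached the minimum of 100 CPM in the high cells alone, so their values are a description. At day 1 the 10 genes outside the list with the largest ratio were Phf11a, Mnda, Pyhin1, Mndal, Keap1, Tor3a, Trafd1, Ccl5, Slfn4 and Daxx, from 7.13-fold for Phf11a (5.43 to 9.32) to 4.63-fold for Daxx (3.53 to 6.03). At least 2-fold lower in high cells were 9.23%, 0.518% and 1.60% of these genes in the 3 libraries, at day 1 among them Ccl24, 2.09-fold (1.81 to 2.42), and the metallothionein gene Mt1, 2.15-fold (1.91 to 2.43). The mannose receptor gene Mrc1 was 1.97-fold lower (1.59 to 2.46). In steady state 9 of the 10 leading genes and at day 5 6 of 10 rested mostly on 1 cell, such as 232 UMIs of Ccl17 in 1 steady state cell. At day 1 none did, but 1 cell held 38 of 143 UMIs of Ccl5, 25 of 71 of Keap1 and 38 of 145 of Trafd1. Ccl5 had a UMI in 14 of 202 high cells. Among genes with a UMI in at least 20% of high cells, a rule added after the values were seen, Mnda was 10.0-fold higher in steady state (6.31 to 15.6), in 11 of 20 high cells. At day 5, Tgtp2 (21.9-fold, 12.4 to 38.6), Ly6c2 (8.79-fold, 7.40 to 10.4) and Mnda (8.57-fold, 6.82 to 10.7) led by that rule.

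**Figure D4:**
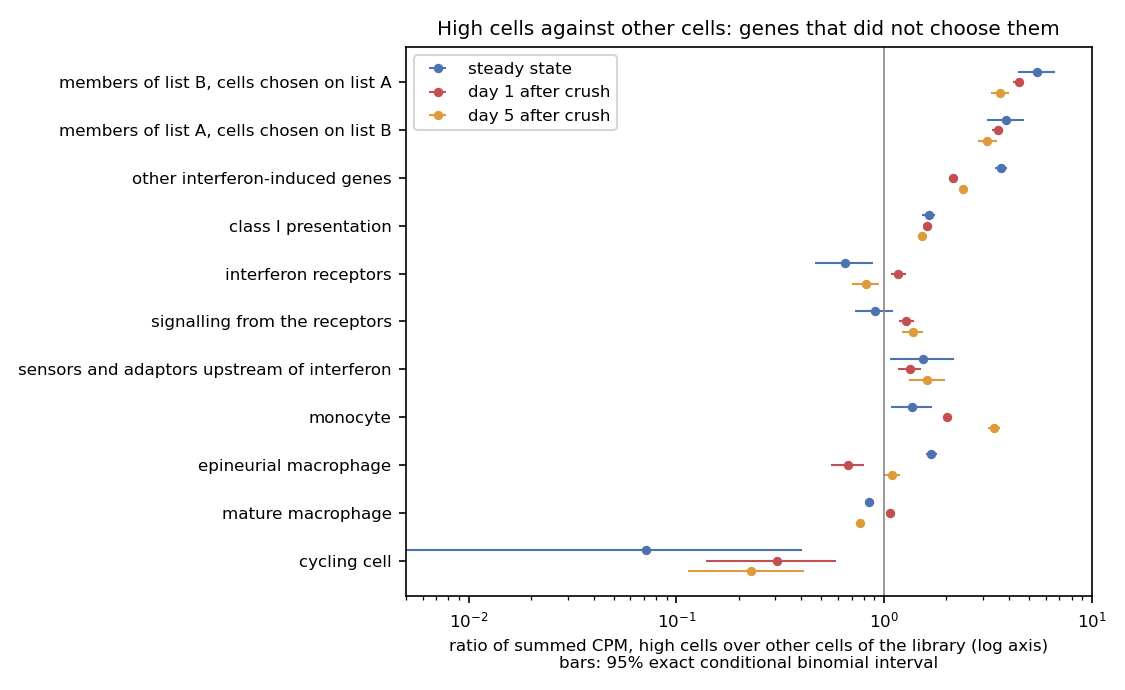
Ratio of summed CPM in high cells over other cells of the same library (log axis) for gene lists that did not choose the cells, with exact 95% intervals for counting error, in steady state, day 1 and day 5. Lists A and B of the members, each measured in cells chosen on the other (3.14 to 5.43), and the further interferon-induced genes (2.15 to 3.66) lie to the right of 1 in each library, monocyte markers reach 3.39 at day 5, and cycling markers lie to the left of 1.

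Markers of cell classes moved with the high cells. Monocyte markers were 1.37-fold (1.08 to 1.71), 2.01-fold (1.94 to 2.08) and 3.39-fold (3.16 to 3.63) higher in high than in other cells. Epineurial markers were 1.69-fold higher in steady state (1.59 to 1.79), at 0.669 of the level of other cells at day 1 (0.555 to 0.800) and 1.10-fold higher at day 5. The 4 endoneurial macrophage markers summed were 1.48-fold (1.28 to 1.72), 1.89-fold (1.76 to 2.03) and 1.49-fold (1.3 to 1.71) higher. They did not move as one. Of 3 with at least 100 CPM at day 5, 1 was at least 2-fold higher and 1 lower, with a median ratio of 0.915. The lower one was Cx3cr1, 2.38-fold (1.48 to 4.11). Macrophage markers were at 0.843, 1.07 and 0.768 of the level of the other cells. Cycling markers were at 0.0716 (0.00181 to 0.401), 0.306 (0.139 to 0.587) and 0.229 (0.114 to 0.411) of it, on 1, 9 and 11 UMIs in the high cells. Markers of NK cells were 4.83-fold (2.32 to 9.5) and 9.53-fold (5.17 to 16.9) higher in high cells of day 1 and day 5, on 13 and 18 UMIs in the high cells, from 2 of 5 genes, with Ncr1, Nkg7 and Gzma at 0. The 8 dendritic cell markers had 256 UMIs in the high cells of steady state, 232 of them Ccl17 in 1 cell, and the 5 fibroblast markers had 87 at day 5, 57 of them Dcn in 1 cell. The part of these cells in the results was not tested.

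Cells could also be split by a marker and compared for the members. At day 1 the 134 cells with at least 2 thinned UMIs of Ly6c2, a surface protein of inflammatory monocytes, had 7724 CPM of the members, and the 2192 cells without Ly6c2 had 3484 CPM, a ratio of 2.22 (2.08 to 2.37). High cells were 26.9% (19.6 to 35.2) and 6.75% (5.74 to 7.88) of these. At day 5 the 42 positive and 1680 negative cells had 6476 and 2814 CPM, a ratio of 2.30 (2.03 to 2.60). The cells with 0 thinned UMIs of Ly6c2 had 3.48 and 2.81 member UMIs per 1000 at day 1 and day 5. The mean of all steady state cells was 2.21. Cells with exactly 1 Ly6c2 UMI, 170 at day 1 and 55 at day 5, were in neither class. A cell with 0 of 1000 UMIs may still express Ly6c2, so this split does not set monocytes apart from other cells. Median depths of positive and negative cells were 3113.5 and 2809 UMIs at day 1 and 4019.5 and 2769.5 at day 5.

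In steady state the 162 cells with at least 2 thinned UMIs over Cd209f, Cd209g, Cd209d and Fcna, markers of epineurial macrophages, had 3321 CPM of the members. The 418 cells without them had 1868 CPM, a ratio of 1.78 (1.59 to 1.99), and high cells made up 6.17% (3.0 to 11.1) and 1.91% (0.830 to 3.74). At day 5 the 57 positive and 1647 negative cells had 3123 and 2965 CPM, a ratio of 1.05 (0.902 to 1.22). The steady state cells without these markers were thus the lowest in members of the classes given here. Cells with exactly 1 UMI over these markers, 58 in steady state and 73 at day 5, were in neither class. Positive cells at day 5 were shallower, with a median of 1620 UMIs against 2854, and the part of depth in this ratio was not tested.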

How the data were processed

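Single-cell RNA was measured in 3 libraries of mouse sciatic nerve macrophages. The authors deposited 1 table of raw UMI counts per library; per the submitters' processing notes, the tool was Cell Ranger 2.0.2 and the build mm10. The sources used here do not state the cell calling settings or the annotation release. Barcodes with at least 200 genes and at most 10% mitochondrial UMIs were kept. Counts were summed per library and divided by its total to give CPM, with exact Poisson intervals; ratios have exact conditional binomial intervals. Shares of cells have exact Clopper-Pearson intervals. A count of 0 was read as up to 3 UMIs. For values per cell, each cell was thinned at random to 1000 UMIs. Analyses used Python 3.11.15, numpy 2.4.6, scipy 1.17.1, pandas 2.3.3 and matplotlib 3.10.9, and were tested on simulated data. The members and all lists were chosen with earlier results of these data known. Named by rule were members with at least 50 CPM in a library and, between classes of cells, the 10 genes outside the list with the largest ratio in each direction among those with at least 100 CPM.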

Additional observations from a re-analysis of the deposited data

How the results depend on the processing

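No paired analysis was possible because each time point is 1 library. The planned use of the pooled table was not run. In 11 of 11 settings the order day 1, day 5, steady state held for the share of high cells and for the mean of the lower 90% of cells. The settings reuse the same cells, so they are not independent. At the reported setting the shares of high cells in day 5 and steady state were not distinguishable, and at 20 or more UMIs they were nearly equal. No result reversed; of the results that answer a comparison 108 values were close to those reported and 30 were not, which follow; the cause was not tested. Another scaling moved the median of all genes by -0.01 to 0.02 log2. With cells weighted equally, the summed members gave ratios of 1.78 (day 1 over steady state), 1.37 (day 5 over steady state) and 0.771 (day 5 over day 1), a median log2 ratio of -0.45 for day 5 over day 1, and 1 member at least 2-fold higher there in place of 2. That count was also 1 among members with at least 20 CPM, and 1 without the cell richest in each member, a setting chosen after seeing the data, where Ifit2 was 1.76-fold higher. With totals that left out mitochondrial, ribosomal protein and the 10 most abundant genes, the summed ratios were 1.44 at day 5 over steady state and 0.872 for day 5 over day 1, and the median log2 ratio of the latter was -0.25. The share of high cells in steady state, day 1 and day 5 was 11%, 28.4% and 20.03% at 5 or more UMIs, 0.784%, 1.80% and 0.788% at 20 or more, and 5.64%, 16.9% and 9.79% for 5 or more members with a UMI. At day 1 and day 5 it was 10.7% and 6.07% at 500 UMIs per cell, 6.01% and 2.59% without Bst2 and Samhd1, and 6.37% and 2.93% without the member with most UMIs. With each member capped at 2 UMIs, also chosen after seeing the data, it was 5.61% and 2.64%. The ratio of the lower 90% of cells was 2.03 for day 1 over steady state at 500 UMIs, and for day 5 over day 1 0.735 without Bst2 and Samhd1 and 0.745 without the member with most UMIs. Members with few steady state UMIs, such as Oas3 and Cmpk2 with 5 each, have ratios known only within wide intervals.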
